A study of Mus musculus with 15 samples.

Results

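The genes described here copy the genome: 44 DNA replication genes, chosen by name for their roles at the replication fork, in the supply of nucleotides, and in packing the new DNA. A gene was read from its brightest probe among those that carry its name, or its older name, in the array annotation (*Rfc1* under the name Recc1). All 44 of 44 genes had a probe, all were well above background on all 15 arrays, and all passed the filter on dim probes, which kept 34760 of the 41174 probes on the array. For 29 genes there was 1 probe, and for the other 15 there were several.

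Uterine RNA came from adult mice, 10 weeks or older, that had been ovariectomized and rested for 10 to 14 days. Mice received 1 intraperitoneal injection of 100 µl saline, or of 250 ng of 17β-estradiol (E2, the main ovarian estrogen) or 250 ng of estriol (E3) in saline. Estriol differs from estradiol by an additional hydroxyl group on the D ring of the steroid and is known as a short-acting estrogen. The 5 groups of 3 arrays were saline at 24 hr, E2 at 2 hr, E3 at 2 hr, E2 at 24 hr, and E3 at 24 hr. The labels give the strain C57bl6/J for 12 arrays and C57bl6/Jx129, with the Esr1 genotype WT (the gene of estrogen receptor α), for the 3 E2 2 hr arrays. Those 3 arrays also sat on slides of their own and were read on another scanner and another day, so strain, slide, scanner, and treatment cannot be told apart in any comparison that uses them. The E2 24 hr and the E3 24 hr arrays each lay on slides that held no other group. Slide and treatment thus cannot be told apart in the comparisons at 24 hr either. There were no saline arrays at 2 hr, and both times were set against saline at 24 hr. Levels are given as log2 of the signal over the array's 75th percentile, so that 0 is the 75th percentile and 1 unit is a 2-fold step, and they compare a gene with itself on other arrays, not with other genes.

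Markers of other tissues differed among arrays of a group. The summed level of 11 lymphoid markers (such as *Ms4a1* and *Cd79b* of B cells; well above background on every array, except *Cd79a* on 1 E2 2 hr array) was 3.72, 18, and 3.87 times the 75th percentile on the saline arrays, 2.82 to 3.16 at 2 hr after E2, 4.65, 9.59, and 26.7 at 2 hr after E3, 8.85, 5.11, and 3.49 at 24 hr after E2, and 4.05, 3.64, and 16.1 at 24 hr after E3. Summed exocrine pancreas markers reached 567 on an E3 2 hr array and 268 on an E2 24 hr array, with a lowest value of 0.305 and 0.358 in those groups, and summed liver markers were 4.73 to 17.7 on saline arrays and at most 2.91 on treated ones. The counts at 24 hr are given with and without the array of highest lymphoid sum in each of 4 groups, leaving E2 at 2 hr whole.

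In the adult mouse uterus an estrogen dose is known to bring the resting epithelium into a synchronous round of DNA synthesis followed by mitosis. Before S phase, ORC, Cdc6, and Cdt1 load the Mcm helicase onto origins (licensing). In S phase, kinases and Mcm10 and Cdc45 start the helicase (firing), primase and the polymerases copy the strands behind a Pcna clamp, and enzymes such as ribonucleotide reductase and thymidine kinase supply the nucleotides. Many of these genes are textbook targets of the E2F transcription factors, which bind short words rich in C and G near the start of transcription.

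Promoter windows of the genes were therefore searched for E2F words. RefSeq windows of the GRCm38.p6 build, from 250 bases before to 50 bases after a transcription start, were found for 39 of the 44 genes; no window was used for *Gmnn*, *Mcm4*, *Prim2*, *Pole*, and *Rfc2*. The 3 words TTTCGCGC, TTTGGCGC, and TTTCCCGC, on either strand, were present in at least 1 window of 14 of these 39 genes (35.9%), against 573 of 27025 genes (2.12%) in the whole table. Counted by window, the shares were 14 of 47 (29.8%) and 606 of 32851 (1.84%). Among 17 mitosis genes with a window, 1 (5.88%) held a word. The licensing genes held 7 of the 14 (*Orc1l*, *Cdc6*, *Cdt1*, *Mcm3*, *Mcm5*, *Mcm6*, and *Mcm7*), whereas no word was found in the windows of *Tk1*, *Mcm10*, *Pcna*, or *Ung*. A match is a description of the letters and not of a bound site. Of the genes described below on every array, 5 hold a word, and stretches are shown for the 4 that rose most after E2 at 24 hr (the fifth is *Pold1*); capitals mark the E2F words, in the direction of the gene from 5′ to 3′, and in *Mcm6* the first 2 of its 3 words overlap.
Cdc6 (chr11:98907973-98908060, plus strand, word 138 bases before the start): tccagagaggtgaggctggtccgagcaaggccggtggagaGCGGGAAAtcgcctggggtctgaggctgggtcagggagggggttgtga
Orc1l, now Orc1 (chr4:108579387-108579474, plus strand, word 27 bases before the start): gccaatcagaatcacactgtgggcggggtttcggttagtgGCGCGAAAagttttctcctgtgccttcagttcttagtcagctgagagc
Lig1 (chr7:13278812-13278875, plus strand, word 26 bases after the start): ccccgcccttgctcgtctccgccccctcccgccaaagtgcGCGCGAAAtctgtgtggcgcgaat
Mcm6 (chr1:128359705-128359855, minus strand, words from 110 to 47 bases before the start): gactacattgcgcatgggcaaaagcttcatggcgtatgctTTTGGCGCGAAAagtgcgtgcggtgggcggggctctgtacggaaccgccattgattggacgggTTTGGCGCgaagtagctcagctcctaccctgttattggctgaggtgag

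The replication genes rose as a group 24 hr after E2. A gene was called when limma's p-value was below 0.001 and the change at least 2-fold. By this rule 28 of the 44 genes were called higher and 0 lower after E2 at 24 hr, where 6.94% of all tested probes were called higher and 11.1% lower. All 44 genes had an adjusted p below 0.05 (limma with Benjamini-Hochberg adjustment over all tested probes), against 27.3% of probes in that direction. All 44 genes were also higher on each of the 3 E2 arrays than on any saline array, as were 30.4% of all probes. The median log2 fold change of the 44 was 1.26, or 2.40-fold, with a range of 0.34 to 3.36, and that of all tested probes was -0.06. In whole uteri, more cells that express a gene and more RNA per cell cannot be told apart.

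The rise after E3 was smaller and was called for 1 gene. *Tk1* alone was called higher and 0 genes lower 24 hr after E3, against 1.85% and 1.96% of probes. At an adjusted p below 0.05, 21 of the 44 were higher, against 15.6% of probes, and 0 were lower, against 18.5%. The arrays did not overlap with saline in the higher direction for 24 genes, against 23.2% of probes, and in the lower direction for 1, *Ung*, against 28.3%. The median log2 fold change was 0.37 (1.30-fold), with a range of -0.47 to 1.98. At an unadjusted p below 0.05, 27 genes were higher and 1 lower, against 20.3% and 24.1% of probes.

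The count after E3 moved with 1 control array. Without the second saline array 5 genes were called (*Tk1*, *Tyms*, *Dbf4*, *Mcm10*, and *Gmnn*, the other 4 named after their values were seen). That array had the highest lymphoid sum of its group and also the highest median over the 44 genes, 0.10 above the saline mean, against 0.02 and -0.14 on the other two. On the E3 2 hr arrays the median was also highest where the lymphoid sum was, 0.25 against -0.13 and -0.02, but on the E3 24 hr arrays it was lowest there, 0.23 against 0.43 and 0.42. Leaving out the array of highest lymphoid sum in each of saline, E3 2 hr, E2 24 hr, and E3 24 hr, an alternative chosen after seeing the data, gave 28 genes called after E2 at 24 hr, 5 after E3, and 20 lower on E3 than on E2 arrays. The part of lymphoid RNA in the levels was otherwise not tested.

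The 2 compounds were then compared directly at the same dose and time. At 24 hr, 18 of the 44 genes were called lower and 0 higher on the E3 arrays than on the E2 arrays, against 2.07% and 2.77% of all probes. By the adjusted p, 43 of 44 were lower, against 15.7% of probes. The E3 arrays lay below all 3 E2 arrays for all 44, against 21.9% of probes. The median difference was -0.95 (range -2.29 to -0.21). The gene that missed the threshold was *Rfc1*, the large subunit of the clamp loader, with a difference of -0.21 (95% interval -0.40 to -0.03, adjusted p = 0.0681 by limma). The compounds were compared at 2 hr, at 24 hr, and in the change of their difference between these times, each adjusted over all tested probes.

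**Figure D1:**
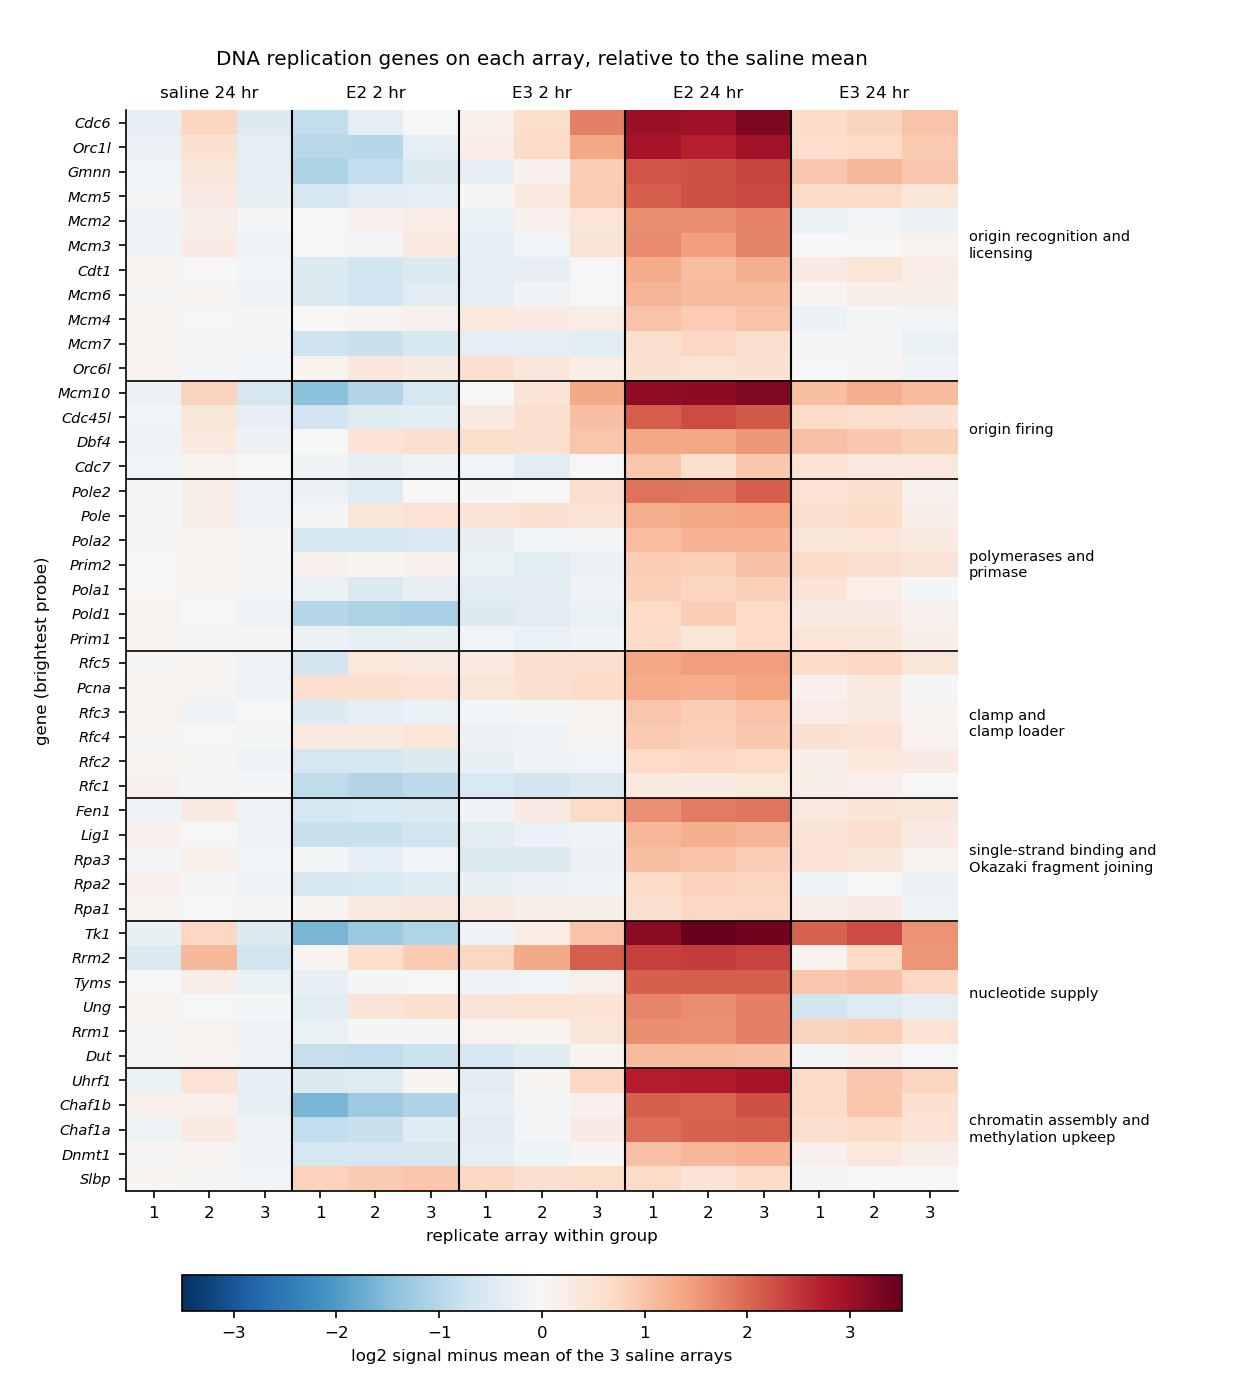
The log2 signal of each of the 44 DNA replication genes (rows, by role) on each of the 15 arrays (columns, by group), minus the mean of the 3 saline arrays; red is higher and blue lower than saline. The 3 E2 24 hr columns are red throughout, the E3 24 hr columns are paler, with the strongest mean colour for *Tk1*, and the E2 2 hr columns are mostly blue.

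Licensing genes carried large differences between the compounds. Of 11 genes that mark and license origins or, as *Gmnn*, hold licensing back, 8 were called higher after E2 at 24 hr and 0 after E3. On E3 arrays 7 were called lower than on E2 arrays. *Cdc6*, the ATPase that recruits the helicase to origins, had log2 levels of -4.05, -2.99, and -4.22 on the saline arrays, -4.63, -4.08, and -3.73 at 2 hr after E2, -3.59, -3.13, and -1.99 at 2 hr after E3, -0.72, -0.78, and -0.49 at 24 hr after E2, and -3.12, -2.96, and -2.76 at 24 hr after E3. The E2 24 hr arrays stood above all others, and the E3 24 hr arrays overlapped with saline, whose second array was nearly as high as they were. *Cdc6* was 8.52-fold higher after E2 at 24 hr (log2 3.09, SE 0.39, adjusted p = 3.19e-05 by limma), whereas after E3 the log2 change was 0.81 with an interval of -0.05 to 1.67. The direct difference was -2.29 (interval -3.14 to -1.43, adjusted p = 0.000899 by limma), the largest of the 44 as read from the brightest probes. A second *Cdc6* probe gave a smaller rise after E2 (2.09) and a difference of -1.96, both also called, and at 2 hr its E3 minus E2 difference was 0.04 where the brightest probe gave 1.24.

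*Orc1l*, now named Orc1, encodes the large subunit of the origin recognition complex. Its log2 levels were -5.57, -4.83, and -5.71 with saline, -6.36, -6.38, and -5.71 at 2 hr after E2, -5.11, -4.71, and -4.02 at 2 hr after E3, -2.47, -2.64, and -2.44 at 24 hr after E2, and -4.78, -4.71, and -4.45 at 24 hr after E3. Here the E3 24 hr arrays lay just above saline and well below E2. The gene was 7.24-fold higher after E2 at 24 hr (adjusted p = 5.28e-06 by limma), had a log2 change of 0.72 after E3 (adjusted p = 0.0695), and differed between the compounds by -2.13 (adjusted p = 0.000178). Over 28 alternatives this difference ranged from -2.23 to -1.02 and was called in 27.

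*Mcm6*, a helicase subunit, had the brightest probe among the licensing genes. Its levels were 3.60, 3.65, and 3.43 with saline, 3.09, 2.89, and 3.20 at 2 hr after E2, 3.26, 3.44, and 3.59 at 2 hr after E3, 4.76, 4.66, and 4.68 at 24 hr after E2, and 3.64, 3.76, and 3.76 at 24 hr after E3. It was high on the E2 24 hr arrays alone, 2.20-fold above saline (adjusted p = 2.91e-06 by limma), while the E3 24 hr arrays overlapped with saline (log2 0.16, interval -0.07 to 0.39). The E3 minus E2 difference of -0.98 passed the p-value threshold but fell just short of the 2-fold limit. In the other Mcm subunits the value after E2 was also the higher. *Mcm2*, *Mcm3*, and *Mcm5* were called higher after E2 with log2 changes of 1.67, 1.61, and 2.22, against -0.18, 0.04, and 0.59 after E3. *Mcm4* and *Mcm7*, with 0.96 and 0.64 after E2, stayed under 2-fold, and their values after E3 were both -0.12. *Gmnn*, the inhibitor of Cdt1 that blocks a second licensing, was called after E2 (2.27) and had a log2 change of 1.01 after E3 (adjusted p = 0.0100 by limma). *Cdt1* itself was called after E2 (1.21, against 0.32 after E3), and the small ORC subunit gene *Orc6l* had values of 0.53 and -0.01.

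Firing factors rose most at *Mcm10*. This gene, which helps to activate the helicase, had levels of -1.57, -0.60, and -1.97 with saline, -2.83, -2.42, and -1.97 at 2 hr after E2, -1.38, -0.94, and -0.05 at 2 hr after E3, 1.72, 1.75, and 1.88 at 24 hr after E2, and -0.32, -0.11, and -0.26 at 24 hr after E3. Both 24 hr groups lay above every saline array, with E2 far above E3. The change was 8.97-fold after E2 (adjusted p = 1.36e-05 by limma) and 2.22-fold after E3 (adjusted p = 0.0281, not called), and the difference was -2.02 (adjusted p = 0.00113). *Cdc7*, the kinase that starts firing, gave -0.89, -0.65, and -0.81 with saline, -0.94, -1.06, and -0.90 and then -0.87, -1.17, and -0.80 at 2 hr after E2 and E3, 0.17, -0.16, and 0.17 at 24 hr after E2, and -0.31, -0.41, and -0.41 at 24 hr after E3. Its 24 hr groups did not overlap with saline or with each other, at log2 changes of 0.84 after E2 and 0.41 after E3, both under 2-fold. The other 2 *Cdc7* probes, both dimmer, gave 1.21 and 1.23 after E2, both called. *Dbf4*, the regulatory partner of Cdc7, was called after E2 (1.41) and reached 0.94 after E3, and its difference between compounds was among the smaller ones (-0.47, interval -0.84 to -0.11). The dim second probe of *Dbf4* gave 0.86 after E2, not called, and a difference of -0.03, both at 24 hr. *Cdc45l*, a part of the active helicase, was called after E2 (2.18, against 0.62 after E3) and was called lower on the E3 arrays.

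**Figure D2:**
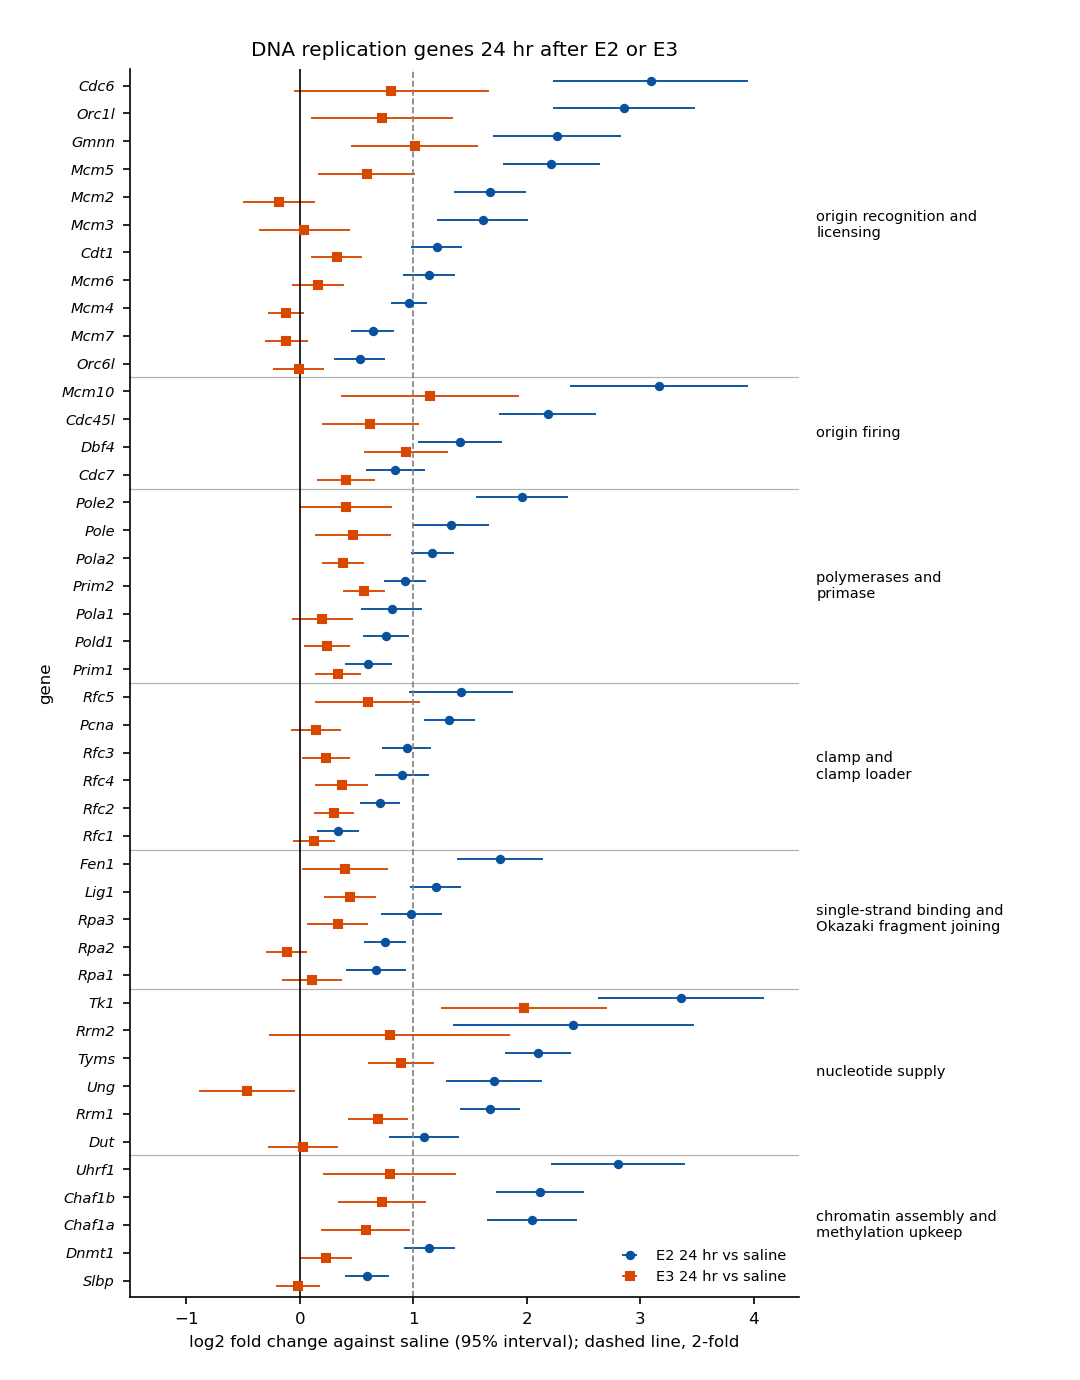
Log2 fold change against saline of each gene 24 hr after E2 (circles) or E3 (squares), with 95% intervals from limma (3 arrays a group); genes are grouped by role and the dashed line marks 2-fold. Every circle lies to the right of its square, and *Tk1* has the highest value for both compounds.

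For polymerase and primase genes the median log2 rise 24 hr after E2 was 0.93, below licensing (1.61) and firing genes (1.80). It lay near the medians of the clamp and clamp loader (0.92) and the single-strand and Okazaki fragment genes (0.98). The roles were not compared by a test. Of 7 genes for polymerases and primase, 3 were called after E2 at 24 hr (*Pole2*, 1.96; *Pole*, 1.33; and *Pola2*, 1.17), 0 after E3, and 1, *Pole2*, a subunit of the leading-strand polymerase, was called lower on E3 arrays (-1.55). The primase genes *Prim1* and *Prim2* had E3 minus E2 differences of -0.27 (interval -0.47 to -0.06) and -0.36 (interval -0.54 to -0.17). For *Prim2* a second, dim probe read -0.58 after E2 at 24 hr where the brightest read 0.93, and a dim *Pola2* probe read 0.11, not called. *Pold1*, the catalytic subunit of the lagging-strand polymerase, had levels of 2.29, 2.18, and 2.03 with saline, 1.15, 1.06, and 1.04 at 2 hr after E2, 1.67, 1.80, and 1.93 at 2 hr after E3, 2.87, 3.04, and 2.86 at 24 hr after E2, and 2.45, 2.45, and 2.31 at 24 hr after E3. No treated group overlapped with saline: both 2 hr groups lay below it and both 24 hr groups above. The log2 changes were -1.08 and -0.37 at 2 hr and 0.76 and 0.24 at 24 hr for E2 and E3, and the first was called (adjusted p = 1.02e-06 by limma). The second *Pold1* probe gave -1.22 and -0.41 at 2 hr.

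*Pcna*, the sliding clamp that holds polymerases on DNA, was higher than saline at 2 hr after both compounds and at 24 hr after E2. Its levels were 3.55, 3.55, and 3.28 with saline, 4.06, 4.03, and 3.97 at 2 hr after E2, 3.90, 3.99, and 4.10 at 2 hr after E3, 4.75, 4.73, and 4.84 at 24 hr after E2, and 3.62, 3.77, and 3.42 at 24 hr after E3. At 2 hr both compounds stood above saline and overlapped with each other, and at 24 hr E2 stood higher still while E3 overlapped with saline. At 2 hr the changes were 1.47-fold for E2 (adjusted p = 0.000468 by limma) and 1.45-fold for E3 (adjusted p = 0.000934), and the difference was -0.02 with an interval of -0.25 to 0.20. At 24 hr they were 2.49-fold and 1.10-fold, and the difference of -1.17 was called (adjusted p = 1.53e-05). From 2 to 24 hr after E3 the gene fell by 0.39 (adjusted p = 0.0061). Among the 5 clamp loader genes, *Rfc5* was called after E2 (1.42), and 0 were called after E3 or between the compounds.

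At single-stranded DNA and at Okazaki fragments, *Fen1* (the flap nuclease, 1.76) and *Lig1* were called after E2 at 24 hr, and *Fen1* was called lower on E3 arrays (-1.37). *Lig1*, the ligase that seals the fragments, had levels of 2.60, 2.47, and 2.27 with saline, 1.66, 1.67, and 1.75 at 2 hr after E2, 2.07, 2.23, and 2.32 at 2 hr after E3, 3.61, 3.69, and 3.63 at 24 hr after E2, and 2.89, 3.03, and 2.74 at 24 hr after E3. It was lowest at 2 hr after E2 and stepped up from saline to E3 to E2 at 24 hr with no overlap. Against saline, the change at 24 hr was 1.36-fold after E3 (adjusted p = 0.00657 by limma) and 2.29-fold after E2 (adjusted p = 1.93e-06). The 3 genes of the single-strand binding protein RPA rose by under 2-fold after E2, with log2 changes of 0.67, 0.75, and 0.98 for *Rpa1*, *Rpa2*, and *Rpa3*, and had 0.11, -0.11, and 0.34 after E3.

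All 6 of 6 genes listed under nucleotide supply were called after E2 at 24 hr. The list also holds *Ung*, which acts on uracil in DNA and supplies no nucleotides. *Rrm2* was called in 23 of 28 alternatives, losing its call without saline array 1 or 3 or any 1 E2 24 hr array. *Dut* was called in 27, losing its call under quantile normalization. *Tk1*, thymidine kinase of the salvage route, had levels of -1.20, -0.21, and -1.43 with saline, -2.55, -2.25, and -1.99 at 2 hr after E2, -1.08, -0.69, and 0.05 at 2 hr after E3, 2.23, 2.56, and 2.44 at 24 hr after E2, and 1.13, 1.34, and 0.62 at 24 hr after E3. Both 24 hr groups were above every saline array and did not overlap with each other. *Tk1* was 10.3-fold higher after E2 (log2 3.36, SE 0.34, adjusted p = 5.21e-06 by limma) and 3.93-fold after E3 (log2 1.98, SE 0.34, adjusted p = 0.00114), and the difference of -1.38 had an interval of -2.11 to -0.65 and a p of 0.00143, which missed the call.

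*Dut*, which clears dUTP, and *Ung*, which cuts uracil out of DNA, differed in another way. The levels of *Dut* were 2.28, 2.34, and 2.11 with saline, 1.43, 1.38, and 1.48 at 2 hr after E2, 1.67, 1.82, and 2.34 at 2 hr after E3, 3.35, 3.35, and 3.31 at 24 hr after E2, and 2.16, 2.39, and 2.26 at 24 hr after E3. Those of *Ung* were 0.21, 0.12, and 0.10 with saline, -0.25, 0.59, and 0.73 at 2 hr after E2, 0.60, 0.66, and 0.63 at 2 hr after E3, 1.87, 1.78, and 1.91 at 24 hr after E2, and -0.50, -0.30, and -0.17 at 24 hr after E3. *Dut* on E3 24 hr arrays overlapped with saline, whereas *Ung* on them lay below every saline array. After E2 at 24 hr the changes were 2.13-fold for *Dut* and 3.27-fold for *Ung*. After E3 the log2 changes were 0.03 (interval -0.28 to 0.34) and -0.47 (adjusted p = 0.0819 by limma). For *Ung* the direct difference was -2.17 (interval -2.60 to -1.75, adjusted p = 1.63e-05), and from 2 to 24 hr after E3 it fell by 0.95 (adjusted p = 0.00118). *Tyms* (thymidylate synthase), *Rrm1*, and *Rrm2* (the ribonucleotide reductase subunits) had 2.10, 1.68, and 2.41 after E2 and 0.89, 0.69, and 0.79 after E3, and *Tyms* was called lower on E3 arrays (-1.20). Second probes gave 2.16 for *Tyms*, with another, dim one at 0.27, and 0.93 for *Dut*, which was not called.

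**Figure D3:**
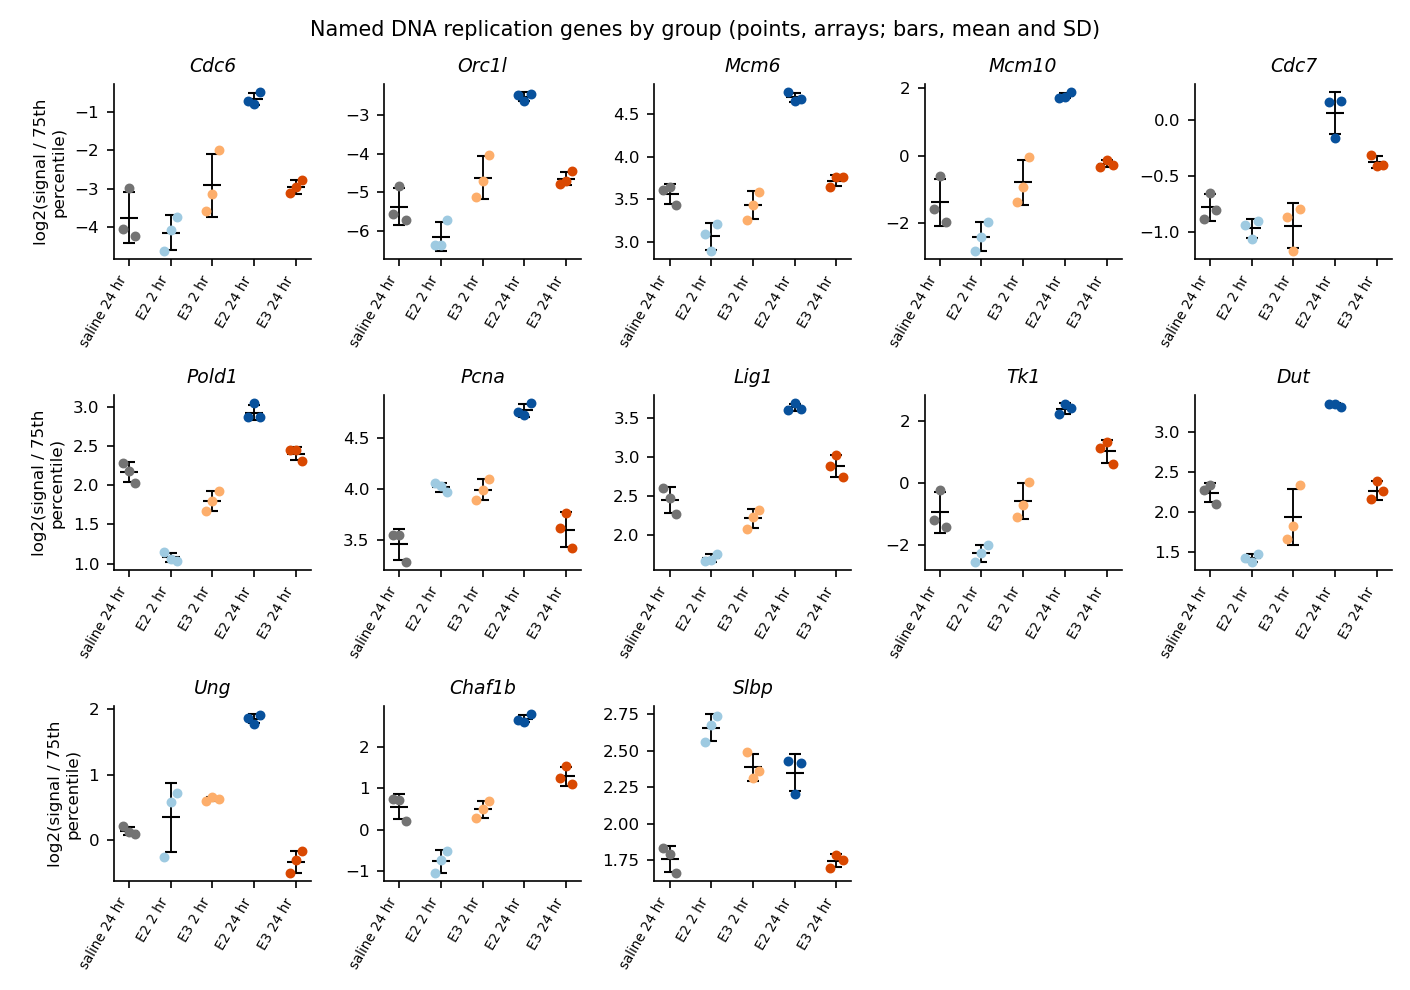
Log2 signal over the array's 75th percentile for 13 named genes in the 5 groups; points are arrays, bars the mean and SD of 3 arrays, and each panel has its own vertical axis. *Pcna* and *Slbp* are raised in both 2 hr groups, and at 24 hr they stand above saline for E2 and overlap with it for E3.

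Genes that pack and mark the new DNA included further large rises. Of 5 genes, 4 were called after E2 at 24 hr: *Uhrf1* (2.81) and *Dnmt1* (1.14), which copy DNA methylation, and *Chaf1a* (2.05) and *Chaf1b* (2.12), which deposit histones. After E3 they had 0.79, 0.23, 0.58, and 0.73, and all but *Dnmt1* were called lower on E3 than on E2 arrays. *Chaf1b* had levels of 0.72, 0.72, and 0.22 with saline, -1.05, -0.73, and -0.52 at 2 hr after E2, 0.28, 0.49, and 0.70 at 2 hr after E3, 2.64, 2.60, and 2.77 at 24 hr after E2, and 1.24, 1.53, and 1.09 at 24 hr after E3. It was below saline at 2 hr after E2, overlapped with it at 2 hr after E3, and was above it in both 24 hr groups. *Slbp*, which binds histone mRNA, had 1.83, 1.79, and 1.66 with saline, 2.56, 2.68, and 2.74 at 2 hr after E2, 2.49, 2.31, and 2.36 at 2 hr after E3, 2.43, 2.20, and 2.42 at 24 hr after E2, and 1.70, 1.78, and 1.75 at 24 hr after E3. Only the E3 24 hr arrays overlapped with saline. The log2 changes at 2 hr were 0.90 and 0.63 (adjusted p = 2.84e-06 and 8.41e-05 by limma), and those at 24 hr were 0.59 (adjusted p = 0.000103) and -0.02 (interval -0.21 to 0.18).

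At 2 hr few replication genes were called. After E2, 0 were called higher and 2 lower (*Chaf1b*, -1.32, adjusted p = 4.00e-05 by limma, and *Pold1*), below the 10.6% and 10.7% of all probes. At an adjusted p below 0.05, 4 were higher and 22 lower, against 29.2% and 32.8% of probes, and the median was -0.35 with -0.08 for all probes. After E3, 0 were called by limma in either direction, against 4.68% and 9.11% of probes. At an unadjusted p below 0.05, 12 were higher and 8 lower, against 20.9% and 34.2%. At an adjusted p below 0.05, 9 were higher and 6 lower, against 18.7% and 31% of probes, and the median was 0.07. The sign of this median turned with 1 array: it was -0.10 without the third E3 2 hr array and 0.20 without the first. By the adjusted p, the share of the 44 lay above that of all probes for genes lower after E2, near it for genes higher after E3, and below it for the other two. The 1 slide that held both groups had all 3 E3 2 hr arrays and 1 saline array. Against that array the median was 0.25, and *Pcna* and *Slbp* had log2 changes of 0.71 and 0.73, values that rest on 1 saline array and are given with no test. Between the compounds at 2 hr, 5 genes were called higher with E3 (*Tk1*, *Mcm10*, *Orc1l*, *Chaf1b*, and *Cdc45l*) and 0 lower, against 1.54% and 5.83% of probes. This count was 2 to 8 with 1 array left out: 2 without the first or second E2 array or the third E3 array, and 8 without the first E3 array. *Mcm10* was called in 14 of 27 alternatives. At an adjusted p below 0.05, 24 were higher and 3 lower, against 17% and 26.3%. The E2 and E3 arrays at 2 hr also differ in strain and scanner. These counts take the brightest probe of each gene. Dim further probes of *Dbf4* and *Prim2* were called higher after E2 at 2 hr, with 2.29 and 1.72, where the brightest gave 0.34 and 0.12. For E3 minus E2 they were called lower, with -1.62 and -2.09, where the brightest gave 0.39 and -0.39. A dim *Pola2* probe was called lower at 2 hr after E2 (-1.46) and E3 (-1.24). Second probes of *Dut* and *Rpa2*, not dim, gave -0.02 and 0.16 after E2, against -0.815 and -0.53. For E3 minus E2 they gave -0.59 and -0.48, against 0.515 and 0.31. Of 14 further tested probes, 2 were called higher and 2 lower after E2, and 0 and 2 for E3 minus E2.

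From 2 to 24 hr after E3, on arrays of the same strain and scanner, 1 gene was called higher (*Tk1*, 3.04-fold) and 0 lower, against 9.65% and 6.47% of probes. The *Tk1* call was lost without the first or second array of either group, and in a fit of the 6 E3 arrays alone with replicate number as a block, added after seeing the data, 0 genes were called. By the adjusted p, 22 were higher and 5 lower (*Ung*, *Slbp*, *Mcm4*, *Orc6l*, and *Pcna*), against 33% and 22.3%. The compound difference at 24 hr minus that at 2 hr was called negative for 31 genes and positive for 0, against 4.39% and 11.1% of probes. By the adjusted p it was negative for 41 of 44, against 17.6%. At 2 hr the difference had been above 0 for 36 of the 44, with a median of 0.37, so that most of these values span a change of sign. Of 14 further tested probes of 12 genes, 8 were called negative, 2 positive (*Dbf4*, 1.60, and *Prim2*, 1.82, both dim), and 4 not called.

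A list of mitosis genes was read beside the replication genes at 24 hr. All 20 of 20 (such as *Ccnb1*, *Plk1*, and *Mki67*) were called higher after E2 and 19 after E3, all but *Top2a*, with median log2 fold changes of 2.59 and 2.24. Between the compounds 0 of 20 were called, 0 had an adjusted p below 0.05 by limma, and 1, *Cdc2a*, had an unadjusted p below it (-0.81, interval -1.49 to -0.12). The median difference was -0.25, and single intervals were wide, for example -1.29 to 0.83 for *Ccnb1* and -0.96 to 0.91 for *Mki67*. The median differences, -0.95 for the replication and -0.25 for the mitosis genes, were not compared by a test. The change of the compound difference from 2 to 24 hr was negative in the mitosis genes as well, with a median of -1.53, 19 of 20 below 0, 15 by the adjusted p, and 4 called; at 2 hr 8 of 20 had been called higher with E3 than with E2. The mitosis median was high on the arrays of high lymphoid sum among saline (0.71, against -0.26 and -0.45) and E3 2 hr arrays (1.40, against 0.21 and 0.49), but lowest there among E2 24 hr (2.46, against 2.52 and 2.67) and E3 24 hr arrays (1.96, against 2.46 and 2.31). Without the array of highest lymphoid sum in 4 groups, 20, 20, and 0 mitosis genes were called for E2, E3, and E3 against E2 at 24 hr, with medians of 3.01, 2.76, and -0.14, and 2 for the change of the difference. Of 30 further replication genes with a probe (of 35 listed), 14 were called higher and 2 lower after E2 at 24 hr, against 6.94% and 11.1% of all probes. After E3 1 was called higher, against 1.85%, and 9 were called lower on E3 than on E2 arrays, against 2.07%. The medians were 0.87, 0.13, and -0.71. Those lower on E3 arrays included *Dctd* (-1.83), *Asf1b* (-1.55), and *Clspn* (-1.53), of nucleotide supply, histone delivery, and the fork checkpoint.

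**Figure D4:**
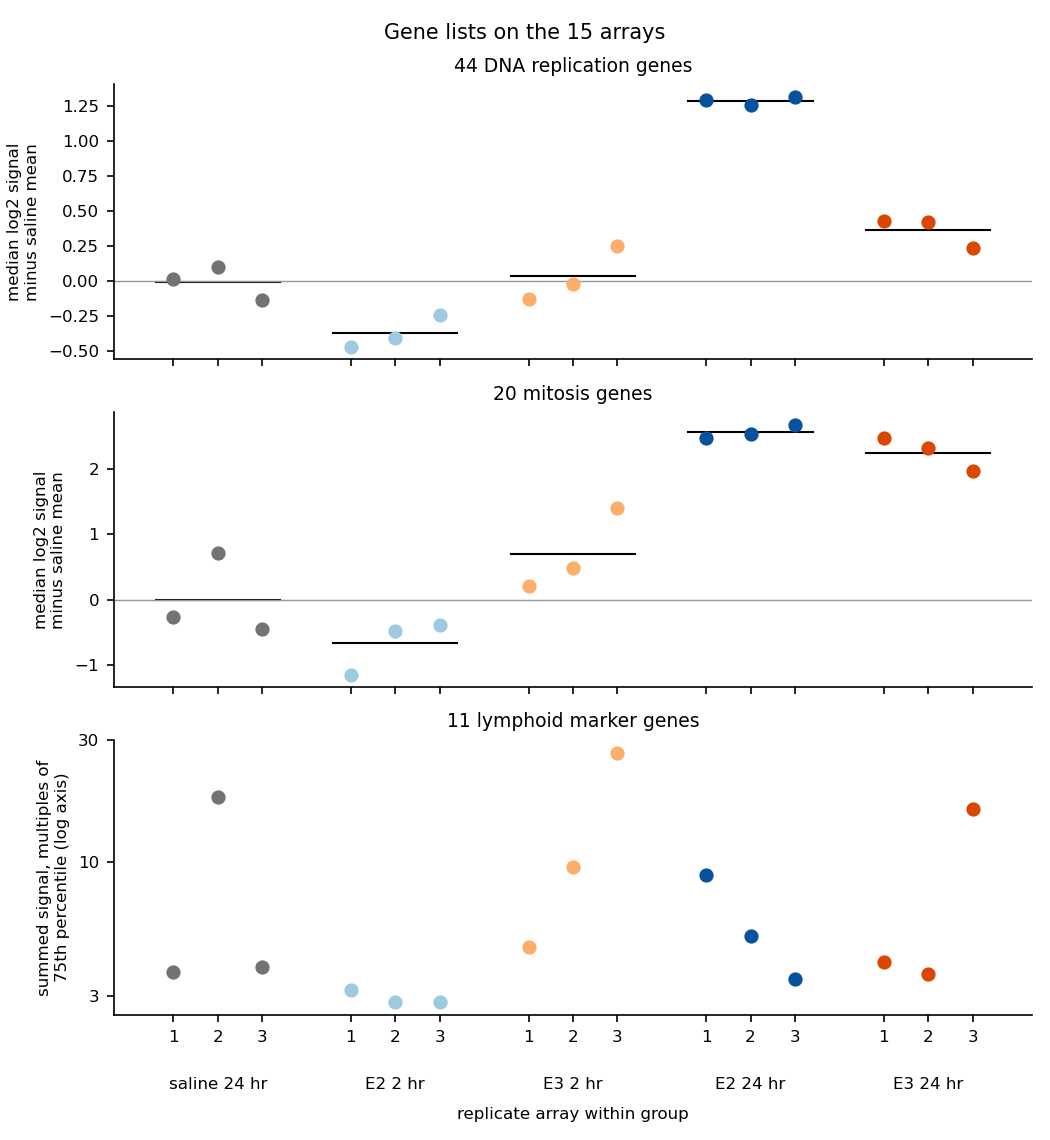
Upper panels, the median over 44 DNA replication and over 20 mitosis genes of the log2 signal minus the saline mean, for each array (points; lines, group means); lower panel, the summed signal of 11 lymphoid marker genes on a log axis. On E3 24 hr arrays the replication median is 0.23 to 0.43 and the mitosis median 1.96 to 2.46, while on E2 24 hr arrays they are 1.26 to 1.31 and 2.46 to 2.67.

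Uterine epithelial, stromal, and smooth muscle markers were present on every array. Summed epithelial markers (7 of 7 genes with a probe well above background) were 69.1 to 94.3 times the 75th percentile with saline, 148 to 158 at 24 hr after E2, and 115 to 124 at 24 hr after E3, and 47.9 to 64.4 and 52 to 67.9 at 2 hr after E2 and E3. Of these 7 genes, 6 were above every saline array in both 24 hr groups, whereas *Wnt7a* was below them, at -0.64 to -1.13 after E2 and -0.32 to -0.68 after E3 against 0.27 to 0.56. Summed stromal markers (7 of 7) were 178 to 220 with saline and 235 to 253 and 257 to 282 at 24 hr after E2 and E3. Of these, *Vim*, *Col1a1*, and *Col3a1* were above every saline array in both 24 hr groups, *Hoxa10* was below them in both (on 2 arrays after E2, since it had no value on the first, whose sum holds the other 6 genes), *Pdgfra* was below them after E2 (2.50 to 2.56 against 3.17 to 3.25) and overlapped after E3, and *Hoxa11* and *Dcn* overlapped. Summed smooth muscle markers (5 of 5) were 246 to 286, 326 to 357, and 340 to 416. The part of these sums in the replication levels was not tested.

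Genes with an E2F word and genes without one were both among those called. Of the 14 genes with a word in a window, 10 were called after E2 at 24 hr (median 1.20) and 6 were called lower on E3 than on E2 arrays (median -0.95). Of the 25 with a window and no word, 16 and 10 were called, with medians of 1.41 and -0.99. The 2 sets were not compared by a test.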

How the data were processed

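Uterine RNA was measured on 15 one-color Agilent 44K mouse arrays. Per the file headers, the authors used Agilent Feature Extraction 9.5.3.1 to read the spots. The intensity they deposited is background subtracted and detrended within the array, and not normalized between arrays. Outlier spots (1893 over all arrays) were dropped, spots of a probe averaged, and log2 of the intensity minus log2 of the array's 75th percentile used. Such scaling sets changes relative to the bulk of probes. The probes tested (34760, 84.4%) were those flagged as above background in 2 or more arrays within some group; the test was done with limma 3.58.1 in R 4.3.3, as 5 group means over 15 arrays in 8 comparisons; 34751 had values in all. Scripts were tested on simulated data. The genes, gene lists, and E2F words were chosen with earlier results of these data known. Values on every array are printed for the brightest gene of each role and for the 3 largest called rises and falls, without overlap between groups, in each comparison with saline and in E3 against E2 at 24 hr. Alternatives covered background correction, scaling, filter, call rule, slide, replicate number, probe choice, and each array left out. Same-numbered E3 arrays at 2 and 24 hr had deviations that correlated at 0.38, 0.12, and 0.55. No other pair of groups had all its values above 0.1, though array 2 of E3 2 hr and of E2 24 hr correlated at 0.535. This comes from the data and not the labels, and shows no pairing by design. The third E3 arrays had the highest lymphoid sums of their groups, and the part of other tissues in these correlations was not tested. Marker lists not described elsewhere gave summed levels over all arrays of 17 to 64.4 (erythroid), 6.76 to 51.7 (fat), 2.12 to 10.8 (skeletal muscle), and 0.226 to 0.668 (ovary). The stromal and myometrial (smooth muscle) lists described above spanned 142 to 282 and 246 to 416 over all arrays. The labels say that each uterus was homogenized singly, whereas the study's methods speak of pooled tissue; each array was taken as 1 sample, and p-values measure the spread between these samples. The number of arrays limits the precision.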

Additional observations from a re-analysis of the deposited data

Results flagged for a closer look

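The E3 minus E2 difference itself changed between 2 and 24 hr for 31 of the 44 DNA replication genes, as tested by the interaction of time and compound (limma, p below 0.001 and at least 2-fold). All 31 values were negative. E3 lay above E2 at 2 hr for 28 of these genes and below E2 at 24 hr for all 31, and 4.39% of all tested probes were called in that direction. In log2 units, the genes of licensing and its inhibitor *Gmnn* gave -3.66 for *Orc1l*, -3.53 for *Cdc6*, -2.48 for *Mcm5*, -2.31 for *Gmnn*, -1.84 for *Mcm2*, -1.49 for *Mcm3*, -1.35 for *Mcm6*, -1.31 for *Mcm4*, -1.20 for *Cdt1*, and -1.10 for *Mcm7*. The firing factors gave -3.63 for *Mcm10* and -2.70 for *Cdc45l*. Among polymerase and clamp genes the values were -1.98 for *Pole2*, -1.26 for *Pola2*, -1.24 for *Pold1*, -1.08 for *Pole*, -1.30 for *Rfc5*, -1.15 for *Pcna*, and -1.04 for *Rfc3*. *Fen1*, *Lig1*, and *Rpa2* had -2.20, -1.27, and -1.18. Nucleotide supply, with *Ung* listed there, gave -3.07 for *Tk1*, -2.45 for *Ung*, -1.58 for *Dut*, -1.33 for *Rrm1*, and -1.29 for *Tyms*. The chromatin genes gave -2.64 for *Chaf1b*, -2.45 for *Uhrf1*, -2.11 for *Chaf1a*, and -1.35 for *Dnmt1*. Of the 31, 24 were called in all 27 alternatives run for the interaction, *Orc1l*, *Mcm3*, *Pola2*, and *Rpa2* in 26, *Pole* in 22, *Rfc3* in 21, and *Rfc5* in 11. Over these alternatives the *Orc1l* value ranged from -3.91 to -1.94. The *Rfc5* value was -0.98 without E2 2 hr array 1, whose level was 0.76 against 1.77 and 1.70 on the other two. These values come from the brightest probes. Among 14 further tested probes of 12 genes, 8 were called negative, for example *Cdc6* at -2.00. The 4 not called were of *Rpa2* (-0.37), *Dut* (-0.45), *Pola2* (-0.55), and *Tyms* (-0.32), those of *Rpa2* and *Dut* not being dim, and dim probes of *Dbf4* (1.60) and *Prim2* (1.82) were called positive. The mitosis genes had a median of -1.53, with 4 of 20 called, or 1 to 7 with 1 array left out. The interaction uses the E2 2 hr arrays, whose strain, slides, and scanner cannot be told apart from the treatment. For genes such as *Tk1*, *Mcm10*, and *Chaf1b*, part of the value is the low level of those arrays at 2 hr (log2 changes of -1.32, -1.02, and -1.32 against saline), whereas for *Pcna* and *Mcm2* the difference at 2 hr was -0.02 for each.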

How the results depend on the processing

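With 1 array left out, 27 to 29 genes were called higher after E2 at 24 hr (28 with all arrays), and 17 to 20 were called lower on E3 than on E2 arrays at that time (18 with all arrays). With a replicate block they were 28 and 18, and this block changed no call count of the replication genes. Over all groups same-numbered arrays did not pair, since 9 of 30 correlations of their deviations were above 0.1 (range -0.46 to 0.55), and 1 of 15 arrays correlated best with its own number in every group. Slide as a random block (correlation -0.01) also gave 28 and 18, but this cannot test for slide at 24 hr. E3 24 hr lay on 1 slide of its own and E2 24 hr on other slides of its own, where slide and group cannot be told apart. Quantile normalization gave 24 and 14, all among those 28 and 18. The count after E3 at 24 hr was 1 to 5 with 1 array left out (5 without saline array 2, 2 without E3 2 hr array 1 or 3), and 5 without the arrays of highest lymphoid sum, an alternative chosen after seeing the data. In that alternative 1 gene was called higher in E3 at 2 hr, 3 higher from 2 to 24 hr after E3, and 3 higher with E3 than E2 at 2 hr. An adjusted p below 0.05 with 2-fold gave 3 genes after E3 at 24 hr, 1 higher after E3 at 2 hr, and 4 lower after E2 at 2 hr, against 2.53%, 5.29%, and 12.5% of probes. With a p below 0.001 and no minimum change, the counts higher were 2 for E2 at 2 hr, 3 for E3 at 2 hr, 43 for E2 at 24 hr, 6 for E3 at 24 hr, 12 for E3 against E2 at 2 hr, and 13 from 2 to 24 hr after E3, against 20.1%, 11.5%, 17%, 7.51%, 7.52%, and 20.9% of probes. The counts lower by this rule were 12 for E2 at 2 hr, 1 for E3 at 2 hr, 1 and 36 for E3 against E2 at 2 and 24 hr, and 3 from 2 to 24 hr after E3, against 21.1%, 18.7%, 15.2%, 8.75%, and 14.2%. Normexp background correction gave 3 genes higher with E3 than E2 at 2 hr. Without scaling, 1 was lower after E2 at 2 hr and 1 lower from 2 to 24 hr after E3. With the mean of a gene's probes, 1 was higher after E2 at 2 hr and 1 lower with E3 than E2 at 2 hr. Without the E2 2 hr arrays, 0 were higher from 2 to 24 hr after E3, as with a replicate block over the 6 E3 arrays alone. With 1 array left out, the counts were 2 to 3 lower after E2 at 2 hr, 0 to 1 higher after E3 at 2 hr (1 without saline array 2), 2 to 8 higher with E3 than E2 at 2 hr (the 2 without E2 2 hr array 1 or 2 or E3 2 hr array 3, the 8 without E3 2 hr array 1), 0 to 3 higher and 0 to 1 lower from 2 to 24 hr after E3 (0 higher without array 1 or 2 of either group, 3 without E3 2 hr array 3, 2 higher and 1 lower without E3 24 hr array 3), and 28 to 31 for the interaction. The mitosis list had 18 to 20 and 16 to 20 genes called after E2 and E3 at 24 hr and 0 between them with 1 array left out. For the interaction it had 4 called, 2 without scaling, with a replicate block, and without the arrays of highest lymphoid sum, 14 by the adjusted p with 2-fold (6.26% of probes), and 1 to 7 with 1 array left out (7 without saline array 2, 1 or 2 without E2 2 hr array 1, any E2 24 hr array, or E3 24 hr array 2 or 3). No called gene changed sign in any of the 30 alternatives; 143 gene values became called and 83 lost their call, and the cause was not tested. The number of arrays, 3 a group, limits the precision.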
